A study of Mus musculus with 23 samples.

Results

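The proteasome genes described here are 41 genes for subunits of the 26S proteasome, its activators and assembly factors, chosen by name. They are Psma1 to Psma7, Psmb1 to Psmb10, Psmc1 to Psmc6, Psmd1 to Psmd14, Psme1 to Psme3 and Pomp. Of these, 40 had a probe set of their own among the 18820 genes measured, and where a gene had several the one with the highest mean over the 23 arrays was taken. Psma4 was measured only on a probe set shared with the transcript AY074887 and is given separately.

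RNA from colon scrapings, pooled per mouse, was hybridised to 1 whole-transcript array per mouse. Male WT mice (129S1/SvImJ) and PPARα KO mice (129S4/SvJae-Pparatm1Gonz/J), aged 7 to 9 weeks, received for 14 days a purified Westernized diet, rich in fat (40 energy percent) and poor in calcium (30 µmol/g), either as such (control diet) or with 0.5 µmol heme per g added (heme diet). The groups held 5 WT mice on control diet, 6 WT mice on heme diet, 6 KO mice on control diet and 6 KO mice on heme diet. All mice thus ate the high-fat, low-calcium diet, PPARα was disrupted in every tissue of the KO mice, and the genotypes also differ in substrain, so that effects of PPARα and of substrain cannot be told apart.

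Ppara itself, the disrupted gene, had a linear signal that averaged 495 ± 50.9 (SD, n = 5) among WT controls and 415 ± 43.9 (n = 6) in heme-fed WT mice. The KO signal was 310.3 ± 46.5 (n = 6) on the control diet and lay between 163 and 238 on the heme diet (n = 6). The KO signal was thus lower but not at background, and where on the transcript these probes lie was not analysed here. All 14 epithelial markers had a mean signal above 20 in every group. Markers of other tissue layers varied within the groups, and smooth muscle markers also differed between them. Smooth muscle markers had a summed signal of 6583 to 19020 in WT controls, 3767 to 5842 in heme-fed WT mice, 3588 to 9322 in KO controls and 3423 to 5949 in heme-fed KO mice, and stroma and vessel markers spread from 1474 to 5031 in WT controls. In such mixed tissue, fewer cells of a type and less RNA per cell cannot be told apart.

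The proteasome is the protease that degrades proteins tagged with ubiquitin. Its barrel-shaped 20S core is built from outer rings of alpha subunits, which gate the entrance, and inner rings of beta subunits, of which Psmb5, Psmb6 and Psmb7 carry the catalytic sites. The 19S regulatory particle holds a ring of ATPases (Psmc genes), which unfold substrates, and non-ATPase subunits (most Psmd genes), some of which bind or remove ubiquitin. Psmd5, Psmd9 and Psmd10 encode chaperones that assemble the particle and are counted here with its genes. Under interferon gamma, Psmb8, Psmb9 and Psmb10 replace the constitutive catalytic subunits to form the immunoproteasome, and the PA28 activator of Psme1 and Psme2 is induced with it. This form is known for cutting peptides for presentation on MHC class I, whereas the constitutive genes are known targets of the transcription factor NRF1 (Nfe2l1), which binds antioxidant response elements.

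Promoter windows from RefSeq (GRCm38.p6; 250 bases before to 50 bases after the transcript start) matched 35 of the 41 genes by symbol; Psmb1, Psmb2, Psmb7, Psmc3, Psmd3 and Psmd7 had no entry. The pairs Psmb5 and Psmb8, and Psmb6 and Psmb9, are shown because in each pair the second subunit replaces the first in the immunoproteasome, and because their signals moved apart on the heme diet. The 250 bases before each start are printed on the strand of the gene, 5′ to 3′. Capitals mark the antioxidant response element core TGACNNNGC in Psmb5 (chr14:54617996-54618245, minus strand) and Psmb6 (chr11:70525107-70525356, plus strand), the gamma-activated site TTCNNNGAA in Psmb8 (chr17:34197945-34198194, plus strand) and the reverse complement of CCAAT in Psmb9 (chr17:34187331-34187580, minus strand).
Psmb5: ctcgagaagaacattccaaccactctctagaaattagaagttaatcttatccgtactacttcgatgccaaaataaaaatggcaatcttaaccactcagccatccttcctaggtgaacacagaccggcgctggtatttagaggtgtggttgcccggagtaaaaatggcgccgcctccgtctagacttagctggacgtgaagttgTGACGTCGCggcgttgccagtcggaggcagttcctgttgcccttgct
Psmb8: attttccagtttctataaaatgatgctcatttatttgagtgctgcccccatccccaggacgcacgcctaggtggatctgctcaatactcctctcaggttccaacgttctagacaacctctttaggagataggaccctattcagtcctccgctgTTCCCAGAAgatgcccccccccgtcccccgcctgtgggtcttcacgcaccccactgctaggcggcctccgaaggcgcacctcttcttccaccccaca
Psmb6: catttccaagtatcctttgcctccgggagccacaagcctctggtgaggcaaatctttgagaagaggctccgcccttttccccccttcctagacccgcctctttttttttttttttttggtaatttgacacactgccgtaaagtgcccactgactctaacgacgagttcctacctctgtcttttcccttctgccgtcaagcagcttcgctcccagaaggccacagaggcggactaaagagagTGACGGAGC
Psmb9: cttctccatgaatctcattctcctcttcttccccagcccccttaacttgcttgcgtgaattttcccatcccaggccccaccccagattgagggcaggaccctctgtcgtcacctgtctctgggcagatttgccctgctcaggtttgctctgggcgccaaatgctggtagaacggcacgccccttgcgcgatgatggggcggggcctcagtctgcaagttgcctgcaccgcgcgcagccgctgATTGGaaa

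The antioxidant response element core was found, on either strand, in 5 of the 35 windows (14.3%; Psmb5, Psmb6, Psmc6, Psmd9 and Psmd12), against 14% of the 27025 genes with a window. The gamma-activated site was found in 2 windows (5.71%; Psmb8 and Psmd2), against 9.55% of all genes. The core of the interferon-stimulated response element, GAAANNGAA, was found in 7 windows (20%), against 9.76% of all genes, and of the immunoproteasome genes Psme1 alone held it. CCAAT was found in 13 windows (37.1%), against 41.1% of all genes. Counted from the transcript start, the marked matches begin at -47 in Psmb5, -97 in Psmb8, -9 in Psmb6 and -8 in Psmb9, and the window of Psmb9 shares 275 bases with that of its neighbour Tap1, a peptide transporter of the class I pathway. Matches of different motifs can share bases. A match is a description of the letters, and a missing match says only that they are not in this window.

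On the heme diet most genes of the 20S core and the 19S particle rose by a small amount. A gene was called where the adjusted p of limma was under 0.01, over all genes, and the mean linear signal exceeded 20 in a compared group. In WT mice 31 of the 40 genes were called higher and 1 lower, where 9.6% of all genes were called higher and 8.29% lower. In KO mice 27 were called higher and 2 lower, against 9.23% and 9.2% of all genes. The calls took in 10 (WT) and 9 (KO) of the 13 measured core genes and 20 (WT) and 17 (KO) of the 20 genes of the 19S particle, all higher. Of the 5 immunoproteasome genes 0 were called higher, while WT mice had 1 of them called lower and KO mice 2. The median log2 fold change of the 40 genes was 0.37 in WT and 0.32 in KO mice, beside a median of -0.01 over all genes in each genotype.

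**Figure D1:**
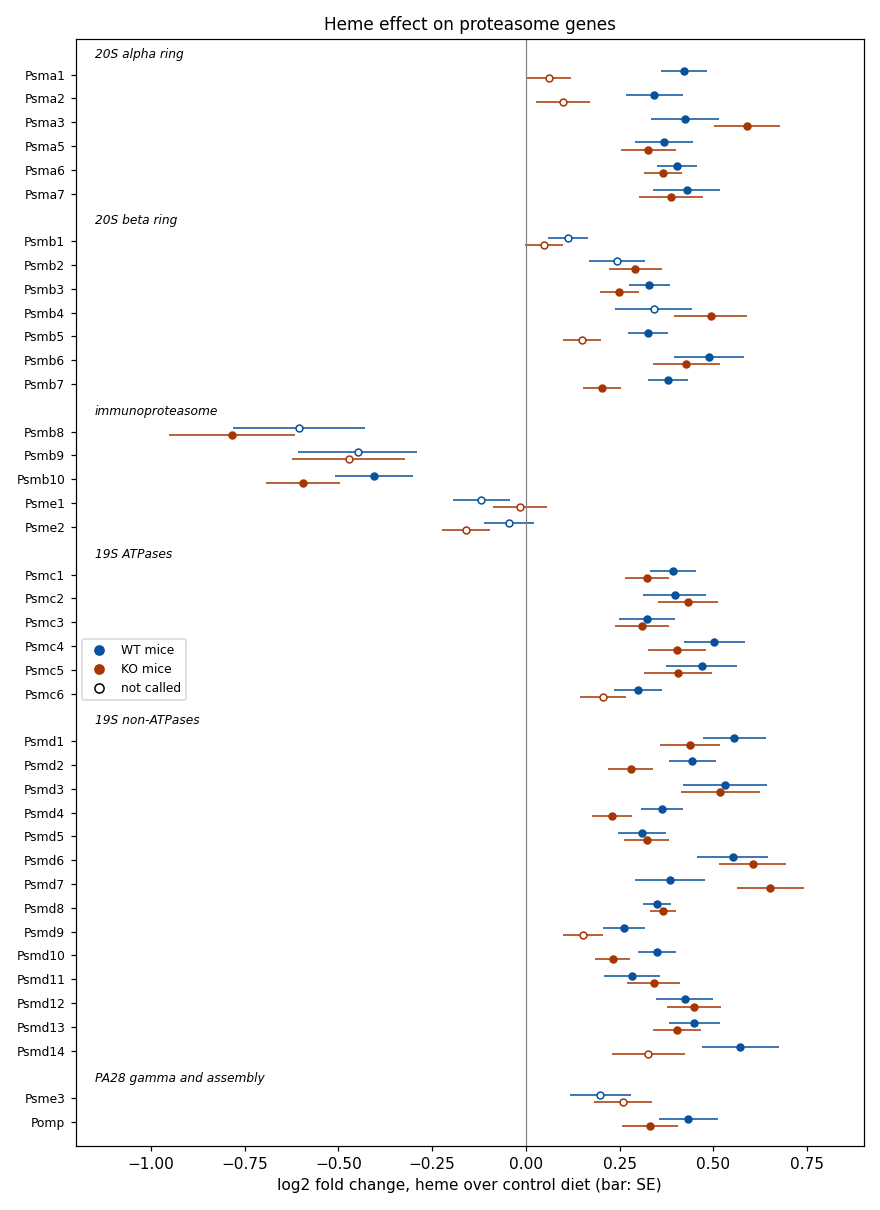
Heme effect as log2 fold change against the control diet (x axis, bar: SE) for each of the 40 proteasome genes (rows, by subunit class), in WT mice (blue) and KO mice (brown); open circles were not called. The 35 genes outside the immunoproteasome class lie to the right of 0 in both genotypes, and the 5 immunoproteasome genes to the left.

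Outside the immunoproteasome class, the log2 fold change was above 0 for all 35 genes in both genotypes, between 0.11 and 0.57 in WT and between 0.05 and 0.65 in KO mice. In WT mice 31 of these 35 were called higher and in KO mice 27, and 0 were called lower. For 26 genes every heme-fed WT mouse exceeded every WT control, which 8.21% of all genes did. The corresponding count in KO mice was 24, against 7.3% of all genes. The genes called higher in both genotypes numbered 25, or 80.6% of those called in WT mice and 92.6% of those called in KO mice. The same overlap was not counted over all genes, so these shares are not shown to be particular to proteasome genes. The paper describes a pronounced overlap of all heme-induced changes between the genotypes. Psma1, Psma2, Psmb5, Psmc6, Psmd9 and Psmd14 were called in WT mice alone and Psmb2 and Psmb4 in KO mice alone, but none of these 8 was called in the test of the difference between the genotypes.

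Averaged per array over the 35 genes, the log2 signal relative to the mean of WT controls lay between -0.04 and 0.04 in WT controls, 0.20 and 0.57 in heme-fed WT mice, -0.10 and 0.08 in KO controls, and 0.23 and 0.43 in heme-fed KO mice. The heme-fed mice thus lay above all controls. Within the WT heme group mice 2 and 4 were lowest, at 0.24 and 0.20, and mouse 1 was highest. Mitosis markers moved in the same direction: their summed signal was 3670 to 5145 in WT controls, 5692 to 8844 in heme-fed WT mice, 2900 to 4765 in KO controls and 5282 to 7959 in heme-fed KO mice, with 14 of 14 measured markers called higher in WT and 13 of 14 in KO mice. The part of cell division in the proteasome result was not tested. With the mean smooth muscle signal of each array as a covariate, 16 genes were called higher in WT mice (3.4% of all genes) and 24 in KO mice (7.69%), while the median log2 fold changes were 0.37 and 0.32. Relative to WT controls, that smooth muscle mean was -1.35 to -0.79 in heme-fed WT mice and -0.63 to 0.88 in WT controls. Because the WT diets did not overlap in it, this fit cannot separate smooth muscle content from diet in WT mice.

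**Figure D2:**
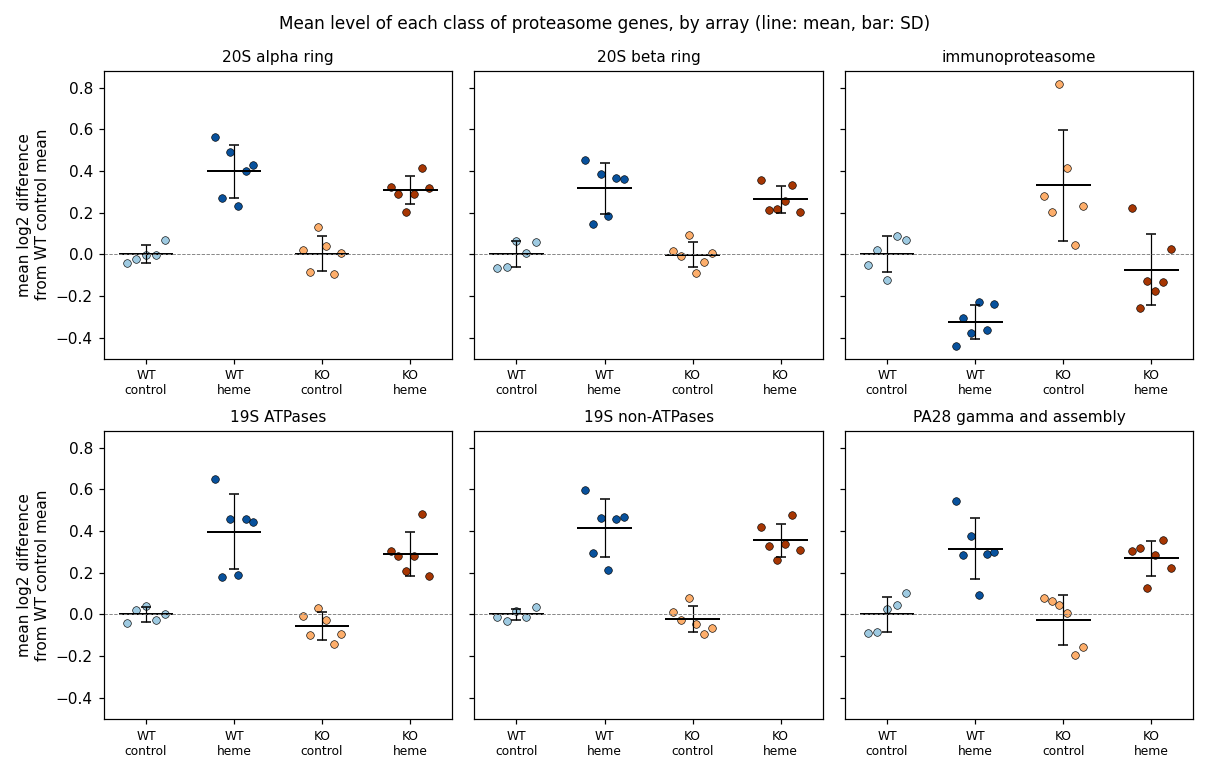
Mean log2 signal of each subunit class in each array, relative to the mean of WT controls (y axis), by genotype and diet (x axis); points are mice, lines group means and bars SD. The core and regulatory classes are higher in the heme-fed groups, and the immunoproteasome class is lower on heme and highest in KO controls, where 1 mouse reaches 0.82.

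**Figure D3:**
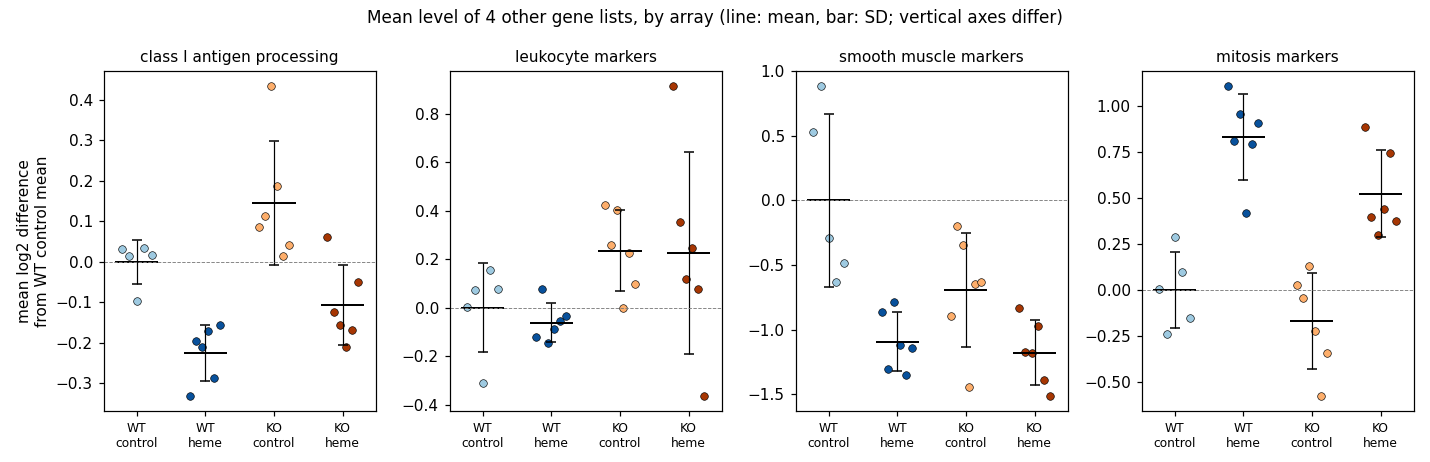
Mean log2 signal of 4 other gene lists in each array, relative to the mean of WT controls (y axes, which differ between panels), by genotype and diet (x axis); points are mice, lines group means and bars SD. Mitosis markers are higher and smooth muscle markers lower in every heme-fed WT mouse than in any WT control, and the leukocyte mean is highest in KO heme mouse 1, at 0.91.

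The alpha ring of the 20S core had 6 measured genes, all called higher in WT mice (median log2 fold change 0.41) and 4 of 6 in KO mice (0.35). Psma6 read linear signals of 731, 774, 784, 789 and 799 in the 5 WT controls and 935 to 1120 in heme-fed WT mice (median 1016). KO mice read 719 to 803 on the control diet (median 762) and 912 to 1038 on the heme diet (median 983). The lowest heme-fed mouse thus exceeded the highest control in each genotype, with log2 fold changes of 0.40 (SE 0.053, adjusted p = 7.28e-06) and 0.36 (SE 0.0505, adjusted p = 1.24e-05). Psma3 had the largest change of the ring in KO mice, at 0.59 (SE 0.087, adjusted p = 2.52e-05), and reached 0.42 in WT mice (SE 0.0913, adjusted p = 0.00118). Its further probe sets were called higher in both genotypes too, but whether they read the same or separate loci was not analysed.

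Psma1 and Psma2 were the alpha genes called in WT mice alone. Psma1 read 834, 924, 954, 971 and 975 in WT controls and 1119 to 1347 in heme-fed WT mice (median 1260). In KO mice it read 954 to 1190 on the control diet (median 1034) and 1000 to 1145 on the heme diet (median 1111). The WT groups did not overlap and the KO groups did. The log2 fold change was 0.42 in WT mice (SE 0.0621, adjusted p = 2.59e-05) and 0.06 in KO mice (SE 0.0592, adjusted p = 0.488). The difference between these effects was -0.36 (95% confidence interval -0.54 to -0.18), with an adjusted p of 0.264 in limma over all genes, and for Psma2 it was -0.24 (-0.46 to -0.03, adjusted p = 0.687). The shared probe set of Psma4 gave 0.18 in WT (adjusted p = 0.0206) and 0.16 in KO mice (adjusted p = 0.0363) and was not called.

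Of the 7 genes of the beta ring, 4 were called higher in WT mice (median 0.33) and 5 in KO mice (0.25). Among the catalytic subunits, Psmb6 (caspase-like activity) had the largest change in both genotypes. It read 427, 449, 489, 495 and 495 in WT controls and 518 to 738 in heme-fed WT mice (median 717), and in KO mice 378 to 554 on the control diet (median 484) and 577 to 686 on the heme diet (median 634). No heme-fed mouse overlapped the controls of its genotype, and the log2 fold changes were 0.49 (SE 0.0937, adjusted p = 0.00041) and 0.43 (SE 0.0893, adjusted p = 0.000845).

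Psmb5, the chymotrypsin-like subunit, read 2184, 2308, 2311, 2348 and 2427 in WT controls and 2620 to 3258 in heme-fed WT mice (median 2858), with a log2 fold change of 0.33 (adjusted p = 8.06e-05). In KO mice it read 2253 to 2502 on the control diet (median 2299) and 2453 to 2700 on the heme diet (median 2614). There the groups overlapped, and 0.15 (SE 0.0508, adjusted p = 0.0285) was not called. Psmb7, the trypsin-like subunit, read 492, 500.3, 529, 543 and 546 in WT controls and 611 to 725 in heme-fed WT mice (median 685), which gave 0.38 on the log2 scale (SE 0.0535, adjusted p = 1.59e-05). Its change in KO mice, from 485 to 569 (median 519) on the control diet to 546 to 647 (median 598) on the heme diet, was 0.20 (SE 0.051, adjusted p = 0.00421). Here the diets overlapped, and the KO call was lost without KO control mouse 2 (adjusted p = 0.0127), KO control mouse 5 (0.0137) or KO heme mouse 1 (0.0119). The same call was lost in limma with only the groups compared in the fit (adjusted p = 0.0126) and with a smooth muscle covariate (0.0255).

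The other 4 beta subunits have no catalytic site of their own. Psmb3 was called in both genotypes, with log2 fold changes of 0.33 and 0.25. Psmb2 and Psmb4 were called in KO mice (0.29, adjusted p = 0.0032, and 0.49, adjusted p = 0.000512) and missed the threshold in WT mice (0.24, adjusted p = 0.0177, and 0.34, adjusted p = 0.0146). Without mouse 2 of the heme group the WT value of Psmb4 was 0.44 and was called (adjusted p = 0.000436), and it was also called without KO control mouse 4 (adjusted p = 0.00548). Psmb2 was called in WT mice without heme-fed mouse 2 (adjusted p = 0.00246) or 4 (0.00698), and was no longer called in KO mice without KO control mouse 4 or KO heme mouse 5 (adjusted p = 0.0103 each). Psmb1 was called in neither genotype, at 0.11 (95% confidence interval 0.0016 to 0.22) in WT and 0.05 (-0.06 to 0.15) in KO mice, and its further probe set was not called either.

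In the 19S particle all 20 genes were called higher in WT mice and 17 in KO mice, Psmc6, Psmd9 and Psmd14 being the exceptions. Of the 6 ATPases, Psmc4 changed most in WT mice. It read 385, 389, 396, 399.5 and 399.7 in WT controls, within a span far narrower than the 449.8 to 677 of heme-fed WT mice (median 585). In KO mice it read 357 to 418 on the control diet (median 379) and 432 to 559 on the heme diet (median 509.6). No mice overlapped between the diets, and the log2 fold changes were 0.50 (SE 0.082, adjusted p = 7.77e-05) and 0.40 (SE 0.0782, adjusted p = 0.000432). Psmc2 and Psmc5 had 0.40 and 0.47 in WT and 0.43 and 0.41 in KO mice.

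The non-ATPase subunits held the largest increase of the proteasome genes in each genotype. Psmd14, the deubiquitinase that removes ubiquitin chains from substrates, read 721, 745, 807, 836 and 864 in WT controls and 867 to 1440 in heme-fed WT mice (median 1191). In KO mice it read 775 to 914 on the control diet (median 813) and 892 to 1219 on the heme diet (median 1038). In WT mice the lowest heme-fed mouse lay just above the highest control, and in KO mice the diets overlapped. The log2 fold change was 0.57 in WT mice (SE 0.103, adjusted p = 0.000216) and 0.33 in KO mice (SE 0.0978, adjusted p = 0.0141). The KO value was called without KO heme mouse 3 (adjusted p = 0.0085) or 6 (0.00754), or without WT heme mouse 1 (0.0094) or 4 (0.00349).

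Psmd7, the partner of Psmd14 in the lid of the particle, had the largest increase in KO mice. It read 423, 439.8, 461, 486 and 497 in WT controls and 499 to 706 in heme-fed WT mice (median 623), and in KO mice 372 to 462 on the control diet (median 435) and 542 to 792 on the heme diet (median 667). In both genotypes all heme-fed mice lay above all controls, by a narrow margin in WT mice. The log2 fold change was 0.65 in KO mice (SE 0.0892, adjusted p = 1.08e-05) and 0.38 in WT mice (SE 0.0935, adjusted p = 0.00331). The WT call was lost without WT control mouse 3 (adjusted p = 0.0106) or WT heme mouse 1 (0.0105). The difference between the genotypes was 0.27 (95% confidence interval -0.0001 to 0.53, adjusted p = 0.736).

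Psmd1 and Psmd6 are a scaffold subunit of the base and a subunit of the lid. Psmd1 read 1092, 1130, 1169, 1195 and 1225 in WT controls and 1419 to 2150 in heme-fed WT mice (median 1649), against 1036 to 1316 (median 1115) and 1380 to 1722 (median 1574) in KO mice on the control and heme diet. Psmd6 read 199.9, 205, 207, 213 and 228.5 in WT controls and 260.4 to 368 in heme-fed WT mice (median 311), against 163 to 219 (median 190.0) and 258 to 334.5 (median 279.5) in KO mice. Neither gene overlapped between the diets in either genotype. Psmd1 rose by 0.56 in WT mice (SE 0.0839, adjusted p = 3.43e-05) and by 0.44 in KO mice (SE 0.08, adjusted p = 0.000235). Psmd6 rose by 0.55 (SE 0.094, adjusted p = 0.000124) and by 0.60 (SE 0.0896, adjusted p = 2.62e-05). Psmd3 reached 0.53 and 0.52, and the smallest changes of the class were those of Psmd9, at 0.26 and 0.15.

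Pomp, the chaperone that assembles new 20S cores, read 235, 247, 290.5, 300.2 and 313 in WT controls and 327 to 404 in heme-fed WT mice (median 375), and in KO mice 247 to 313 on the control diet (median 298) and 324.5 to 392.5 on the heme diet (median 373). The diets did not overlap in either genotype, and Pomp rose by 0.43 (SE 0.0785, adjusted p = 0.000238) and 0.33 (SE 0.0749, adjusted p = 0.00173). With the smooth muscle covariate it was not called in either genotype (0.29, adjusted p = 0.0661, and 0.27, adjusted p = 0.0135). The WT calls of other genes were lost with this covariate too, among them Psma1, Psma5, Psma7, Psmb3, Psmc2, Psmc5, Psmd3, Psmd7, Psmd14 and Psmb10. Psme3, the nuclear activator PA28 gamma, was not called at 0.20 in WT (adjusted p = 0.0762) and 0.26 in KO mice (adjusted p = 0.0148). The KO value of Psme3 passed without WT heme mouse 1 (adjusted p = 0.0044) or 4 (0.00865), or without KO heme mouse 3 (0.00629).

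Of the 5 genes of the immunoproteasome class, Psmb10 was called lower in both genotypes and Psmb8 in KO mice, where 8.29% and 9.2% of all genes were called lower in WT and KO mice, and the median log2 fold changes of the class were -0.40 and -0.47. Without KO control mouse 3 the KO median, which is the value of Psmb9, was -0.30. In WT mice all heme-fed mice lay below all controls for 3 of the 5 genes (Psmb8, Psmb9 and Psmb10), which held for 6.91% of all genes. In KO mice this held for Psmb10 alone, against 6.62% of all genes.

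Psmb8, the inducible counterpart of Psmb5, read 89.3, 105, 120.4, 127 and 127 in WT controls and 68.2 to 83.5 in heme-fed WT mice (median 72.3). KO mice read 118 to 318 on the control diet (median 158) and 80.8 to 148 on the heme diet (median 93.4). The WT groups did not overlap, and in KO mice the highest heme-fed mouse overlapped the controls. The log2 fold change was -0.61 in WT mice (SE 0.176, adjusted p = 0.0117) and -0.78 in KO mice (SE 0.168, adjusted p = 0.00103), of which the second was called. The WT value was called without WT control mouse 3 (adjusted p = 0.00701), KO control mouse 3 (0.00102), KO control mouse 5 (0.0076) or KO heme mouse 1 (0.00589). The KO call was lost with only the groups compared in the fit (adjusted p = 0.0102) and in the two-way test on linear signal (0.0131). In two-sided exact permutation tests of the log2 values, p was 0.00216 for WT mice and 0.00433 for KO mice. The smallest p that such a test can give at these group sizes is 0.00216, and 20 such tests were made for the 5 genes, without adjustment.

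Psmb9, the counterpart of Psmb6, read 149, 162, 178, 188 and 197 in WT controls and 105 to 139 in heme-fed WT mice (median 130.3), and in KO mice 189.9 to 423 on the control diet (median 218.5) and 135.5 to 236 on the heme diet (median 164). The WT groups were separate and the KO groups overlapped. Neither effect was called, at -0.45 in WT (SE 0.158, adjusted p = 0.036; exact permutation p = 0.00216) and -0.47 in KO mice (SE 0.15, adjusted p = 0.0203; exact permutation p = 0.0216). The exact permutation p in KO mice was 0.0541 without heme-fed mouse 2 and 0.0519 without heme-fed mouse 5. In limma the WT value was called without KO control mouse 3 (adjusted p = 0.00298) and the KO value without KO heme mouse 1 (adjusted p = 0.00497).

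Psmb10, the counterpart of Psmb7, read 626, 648, 679.9, 700.5 and 703 in WT controls and 448 to 597 in heme-fed WT mice (median 508), and in KO mice 705 to 952 on the control diet (median 825) and 440.1 to 653 on the heme diet (median 557). In each genotype all heme-fed mice lay below all controls. Psmb10 fell by 0.40 on the log2 scale in WT mice (SE 0.104, adjusted p = 0.00523) and by 0.59 in KO mice (SE 0.0995, adjusted p = 9.62e-05). The WT call was lost without WT control mouse 3 (adjusted p = 0.013), 4 (0.014) or 5 (0.0119), and without WT heme mouse 1 (0.0147), 3 (0.0103) or 5 (0.0153). The activator genes were not called. Psme1 had -0.12 in WT and -0.02 in KO mice, and Psme2 -0.05 and -0.16, with adjusted p of 0.273, 0.908, 0.683 and 0.0635.

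Within each array, the inducible subunit was set against the constitutive subunit that it replaces, as the log2 difference relative to the mean of WT controls, which shows unequal change and not levels. Psmb8 minus Psmb5 was -0.93 ± 0.225 (SD, n = 6) in heme-fed WT mice, 0.59 ± 0.464 in KO controls and -0.35 ± 0.277 in heme-fed KO mice. WT controls spread from -0.41 to 0.26. The heme diet moved this difference by -0.93 in WT mice and by -0.94 in KO mice, without overlap in WT mice and with overlap in KO mice. Psmb9 minus Psmb6 changed by -0.94 and -0.90, and Psmb10 minus Psmb7 by -0.78 and -0.80, and for both pairs the diets did not overlap in either genotype. The values of KO controls lay above those of WT controls on average for each pair, and the difference of the heme effects between the genotypes was not tested for the pairs. Leaving out single arrays moved the 6 heme effects between -1.04 and -0.73.

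**Figure D4:**
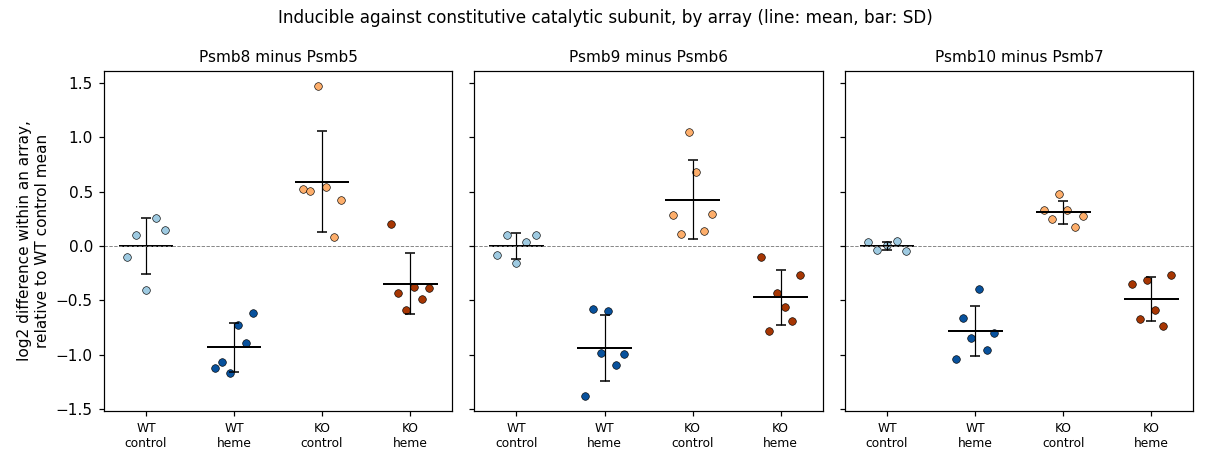
Log2 signal of the inducible minus the constitutive catalytic subunit within each array, relative to the mean of WT controls (y axis), by genotype and diet (x axis), for Psmb8 and Psmb5, Psmb9 and Psmb6, and Psmb10 and Psmb7; points are mice, lines group means and bars SD. Heme-fed mice lie lower in each genotype, and 1 KO control stands out at 1.47 for Psmb8 minus Psmb5.

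Between the genotypes 0 of the 40 genes were called on either diet, and 0 in the interaction, in limma. At an unadjusted p under 0.05 there were 6 genes on the control diet, 10 on the heme diet and 4 in the interaction. That threshold was met by 1080, 2289 and 1271 of all 18820 genes in the same 3 comparisons. Over all genes, 0.0159% were called higher and 0.0372% lower in KO controls, 0.133% and 0.101% in heme-fed KO mice, and 0% and 0.0106% in the interaction. The 35 genes outside the immunoproteasome class had a median log2 difference of KO over WT of -0.01 on the control diet and -0.07 on the heme diet, with 16 and 8 of the 35 above 0. The comparison with KO controls and that with heme-fed KO mice use separate animals, but each shares its animals with the heme effects above.

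All 5 immunoproteasome genes had higher means in KO than in WT mice on both diets, but none of these differences passed the adjustment over all genes. Psmb8 differed by 0.60 on the control diet (95% confidence interval 0.23 to 0.96, adjusted p = 0.524; exact permutation p = 0.0152) and by 0.42 on the heme diet (0.07 to 0.77, adjusted p = 0.29; exact permutation p = 0.00433). Psmb9 differed by 0.43 and 0.41 (adjusted p = 0.678 and 0.239), Psmb10 by 0.30 and 0.11 (0.656 and 0.726), Psme1 by 0.11 and 0.22 (0.949 and 0.188), and Psme2 by 0.21 and 0.10 (0.584 and 0.561). Every KO control exceeded every WT control for Psmb10 and Psme2, and every heme-fed KO mouse exceeded every heme-fed WT mouse for Psme1, whereas 0.478% and 0.43% of all genes did so. Averaged over the class, KO controls ranged from 0.04 to 0.82 relative to WT controls, and the highest was mouse 3. The same mouse was highest for the interferon gamma genes at 0.97, and KO heme mouse 1, highest of its group for the class at 0.22, had 0.52 for those genes. Leukocyte markers had a summed signal of 1525 to 2374 in WT controls, 1825 to 2178 in heme-fed WT mice, 2168 to 3014 in KO controls and 1468 to 4740 in heme-fed KO mice, and all 15 measured markers had a mean signal above 20 in every group. For KO over WT, 15 of these 15 markers lay above 0 on the control diet (median log2 difference 0.27) and 14 on the heme diet (0.26), with 0 called. The part of leukocytes in the genotype differences was not tested. With the leukocyte signal of each array as a covariate, Psmb8 in WT mice was called lower on heme at -0.57 (adjusted p = 0.00833), and the calls came to 31 higher with 2 lower for WT mice, and to 27 higher with 2 lower for KO mice. That fit called 9.85% of all genes higher and 8.82% lower for WT mice, against 9.73% and 10.2% for KO mice.

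Genes that work with the proteasome were counted against the same shares of all genes, 9.6% called higher in WT and 9.23% in KO mice. Of 12 further proteasome proteins measured, 4 were called higher in WT mice (Psme4, Psmg3, Sem1 and Uchl5) and 3 in KO mice (Psme4, Psmf1 and Uchl5), with 0 lower. Uchl5, a deubiquitinase of the 19S particle, had 0.43 (SE 0.0858, adjusted p = 0.000596) and 0.30 (SE 0.0818, adjusted p = 0.00816). Of 13 shuttle factors and p97 cofactors, which carry ubiquitinated proteins to the proteasome, 3 were called higher in WT mice against 6 in KO mice, with 0 lower. Sqstm1 (p62), which binds ubiquitinated cargo, had 0.45 and 0.44, and Rad23b, a shuttle receptor, 0.28 and 0.31. Of the 4 measured genes of ubiquitin and its first conjugation steps, Ube2n, a conjugating enzyme, was called higher at 0.29 in each genotype.

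Of 7 measured genes of the NRF1 pathway, Vcp, the p97 ATPase that extracts NRF1 from the endoplasmic reticulum, was called higher in both genotypes (0.43, adjusted p = 5.75e-05, and 0.47, adjusted p = 1.38e-05). Nfe2l1 itself was not called, at -0.15 in WT (adjusted p = 0.0134) and -0.13 in KO mice (adjusted p = 0.0233). Nfe2l2, which encodes the related factor NRF2, was called lower in KO mice at -0.31 (adjusted p = 0.00032) and had -0.12 in WT mice (adjusted p = 0.18). Transcript levels say nothing of the processing of these factors.

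Genes of MHC class I antigen processing, the pathway that the immunoproteasome serves, were lower where they were called. Of 10 measured, 5 were called lower in WT mice (Tapbp, B2m, H2-K1, Tap2 and Erap1) and 4 in KO mice (Tapbp, B2m, H2-K1 and Erap1), and 0 higher, beside the same all-gene shares of 8.29% and 9.2% called lower. Tapbp, which loads peptides onto class I molecules, had -0.63 in WT (SE 0.0778, adjusted p = 3.69e-06) and -0.61 in KO mice (SE 0.0741, adjusted p = 2.58e-06), and B2m, the class I light chain, -0.51 and -0.40. Tap1, which shares its promoter region with Psmb9, was not called at -0.16 (adjusted p = 0.619) and -0.46 (adjusted p = 0.0651). Of 14 interferon gamma genes, 2 were called lower in WT (Gbp2 and Jak1) and 3 in KO mice (Gbp2, Gbp3 and Irf1), and 0 higher, where 8.29% and 9.2% of all genes were called lower. The WT count is near that share. Gbp2, an interferon-induced GTPase, had the largest change of these genes, with -1.57 (adjusted p = 0.000528) and -1.74 (adjusted p = 0.000113), and Irf1 had -0.505 (adjusted p = 0.0384) and -0.79 (adjusted p = 0.00118). Ifng had a mean signal under 20 in all groups.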

How the data were processed

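The authors deposited log2 values for each probe set, made by Robust Multi-array Average from all arrays at once (version not given in the sources used here). They were used as given, and linear signal is 2 to that power. Quantile normalisation in this method holds the distribution of probe values equal between arrays, so that changes are relative to all genes. The study describes reorganised probe sets, so the probes behind a gene can differ. Array signals have no read depth, so precision depends on how many arrays there are. Array medians (log2) were 5.855 to 5.891 in WT controls and 5.8 to 5.846 in heme-fed WT mice. In KO mice they were 5.867 to 5.903 on the control diet and 5.805 to 5.872 on the heme diet. Mean correlations within a group were at least 0.99, and 0 columns were left unmatched to samples by title. The array of 1 further WT control mouse was excluded by the authors.

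Gene names come from GEO's annotation of the platform, brought up to date by Entrez identifier against RefSeq (GRCm38.p6). Of 21218 probe sets that carry 1 symbol, 21185 were found there. Those with several symbols (1881) or none (12457) did not enter the fit, which covered 18820 genes.

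limma 3.58.1 (R 4.3.3) fitted the 4 groups in 1 model, with Benjamini-Hochberg adjustment over all genes for the heme effect in each genotype, the genotype effect on each diet, and the interaction. The study names no test behind its q-values, so limma was used at its thresholds. Standard errors are moderated and intervals cover 95%. The fit was tested on simulated data with planted changes larger than the median heme effect of the proteasome genes. How often changes of that smaller size are called was not tested. Single immunoproteasome genes were also compared by exact permutation tests in Python 3.11.15 (numpy 2.4.6, pandas 2.3.3).

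The members, gene lists and tests were chosen with earlier results of these data known. Genes named are, per subunit class, the 4 called with the largest change in each heme contrast, all immunoproteasome genes, all called in a genotype contrast or lower on heme, and all called in neither heme contrast; of other lists, up to 4 called genes with the largest change; and Ppara. Nfe2l1, Tap1, Ifng and the members called in 1 genotype alone were named after their values were seen. Lists count genes with a probe set of their own. Alternatives covered the signal filter, threshold, array scaling, variance model, test, probe sets, a replicate block, a smooth muscle covariate and leaving out each array. A leukocyte covariate and shared or further probe sets were added after seeing the data. The main fit did not treat mice with the same replicate number as pairs.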

Additional observations from a re-analysis of the deposited data

Results flagged for a closer look

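In 116 combinations of gene and group, 8 held a mouse whose gap to the nearest other mouse was large for the range of its group (chance gives about 1 in 20). In heme-fed WT mice, Psmb3 was lowest in mouse 4 at a linear signal of 3573 (next 4116), and Psmb9 was lowest in mouse 1 at 104.9 (next 126). Psmb4 was highest in WT control mouse 5 at 960.7 (next 931) and lowest in KO control mouse 4 at 650.6 (next 866). KO control mouse 4 also had the highest Psmc1 of its group, at 351.3 (next 314).

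Psmb9 was highest in KO control mouse 3, at 423.1 (next 224), the same mouse that was highest for the interferon gamma genes. Psmb8 was highest in KO heme mouse 1, at 148.3 (next 98.9), which had the highest leukocyte mean. Psmc2 was highest in KO heme mouse 5, at 242.6 (next 201).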

How the results depend on the processing

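The counts of proteasome genes called higher on heme were 31 in WT and 27 in KO mice. In WT mice the count moved to 16 with smooth muscle signal as a covariate, and it ranged from 29 to 33 when each array was left out in turn (26 to 30 in KO mice). Psmb10 was the 1 gene called lower in WT mice. That count became 2 with low signals left out before the fit, with array weights or with leukocyte signal as a covariate (added after seeing the data), 3 at an adjusted p under 0.05 or with only the groups compared in the fit, and 0 with arrays centred on their median, with the two-way test on linear signal or with the smooth muscle covariate. It was 0 to 3 over the arrays left out. In KO mice the count of genes called lower was 2, became 1 with only the groups compared and with the two-way test (Psmb8 lost in both), 3 at an adjusted p under 0.05 or with array weights, and was 2 to 3 over the arrays left out.

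Psme1 in KO mice, -0.02 and not called, changed sign to 0.0283 with centred arrays (adjusted p = 0.837) and ranged from -0.0654 to 0.0354 over the arrays left out, being 0.0354 without KO control replicate 3 and 0.0106 without KO control replicate 4. The Psmb9 difference in KO mice ranged from -0.57 to -0.30 (without KO control mouse 3). The cause of these changes was not tested.

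Replicate numbers were shared between groups. Deviations from the group means correlated above 0.1 in 11 of 33 same-numbered pairs of mice (median 0.07, range -0.27 to 0.287). Among pairs with other numbers this held for 38 of 165 (median 0.001, range -0.445 to 0.414), and the difference was not tested. With the replicate number as a block, calls in WT mice were 31 higher with 1 lower, and in KO mice 27 higher with 2 lower. No member was called between genotypes or in the interaction under any alternative.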
